A study of Mus musculus with 96 samples.

Results

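Kupffer cells, the resident macrophages of the liver, are recognised by a small set of genes, and the accessible sites at 9 of these genes (Clec4f, Vsig4, Timd4, Cd163, Cd5l, Nr1h3, Id3, Spic and Marco) are described here in fasted and fed mice. A site was taken when its nearest transcription start site (TSS) was that of a member gene within 100 kb, which gave 56 of 30170 peaks in macrophage nuclei and 10 of 46832 peaks in hepatocyte nuclei. A peak near a gene is not shown to regulate it. Accessibility was measured by ATAC-seq, in which a transposase cuts open DNA, in nuclei tagged by cell type and captured on beads. Female HEP-INTACT mice gave hepatocyte nuclei and female MAC-INTACT mice gave macrophage nuclei. The groups were mice fasted from ZT12 (zeitgeber time, hours after lights on) for 3, 8, 16 or 24 h, and ad libitum fed mice for each of those times, which fell at ZT15, ZT20, ZT4 and ZT12. Each of the 16 groups held 4 mice. The labels used here state neither the promoter that drives the tag nor the age or strain. The feeding state of the macrophage samples carries the suffix lys, whose meaning they do not give, and the tag as labelled covers macrophages as a class and not Kupffer cells alone.

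As background, Kupffer cells line the liver sinusoids, where they clear particles, microbes and aged red cells from the blood. Their chromatin is opened by general myeloid factors such as PU.1 together with factors that mark this cell type. Among the latter are the liver X receptor encoded by Nr1h3 and SPI-C encoded by Spic. ID3, another regulator of these cells, blocks E-protein transcription factors. The other members encode what these cells display or secrete. Clec4f encodes a C-type lectin, Vsig4 a complement receptor, Timd4 a receptor for phosphatidylserine on dying cells, Cd163 the scavenger receptor for haemoglobin bound to haptoglobin, Marco a scavenger receptor for particles, and Cd5l a secreted inhibitor of macrophage death.

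The promoter sequences of 5 members are shown because they carry the macrophage peaks described below, with 4 that were lower in fasted mice at 16 or 24 h and that of Id3, which was not called at any time in macrophage nuclei with the values as deposited. Each is the stretch of 250 bases before the annotated start, 5′ to 3′ along the gene, from RefSeq on GRCm38.p6, the assembly that mm10 follows. Capitals mark matches on either strand to the motifs searched.
Clec4f, chr6:83656117-83656366, minus strand: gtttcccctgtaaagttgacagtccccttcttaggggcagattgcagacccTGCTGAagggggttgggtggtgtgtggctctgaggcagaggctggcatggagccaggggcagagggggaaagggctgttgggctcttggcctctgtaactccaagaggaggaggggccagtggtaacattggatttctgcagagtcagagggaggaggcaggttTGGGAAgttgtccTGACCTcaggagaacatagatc
Vsig4, chrX:96293439-96293688, minus strand: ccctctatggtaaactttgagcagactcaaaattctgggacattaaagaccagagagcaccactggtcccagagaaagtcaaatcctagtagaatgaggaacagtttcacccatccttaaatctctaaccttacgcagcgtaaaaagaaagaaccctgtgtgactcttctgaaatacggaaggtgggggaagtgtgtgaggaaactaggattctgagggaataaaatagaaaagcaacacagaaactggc
Timd4, chr11:46810549-46810798, plus strand: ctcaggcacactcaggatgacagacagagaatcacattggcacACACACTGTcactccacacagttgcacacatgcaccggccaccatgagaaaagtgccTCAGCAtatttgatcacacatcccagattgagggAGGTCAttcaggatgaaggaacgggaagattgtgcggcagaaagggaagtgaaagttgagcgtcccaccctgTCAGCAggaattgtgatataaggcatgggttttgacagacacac
Cd5l, chr3:87357631-87357880, plus strand: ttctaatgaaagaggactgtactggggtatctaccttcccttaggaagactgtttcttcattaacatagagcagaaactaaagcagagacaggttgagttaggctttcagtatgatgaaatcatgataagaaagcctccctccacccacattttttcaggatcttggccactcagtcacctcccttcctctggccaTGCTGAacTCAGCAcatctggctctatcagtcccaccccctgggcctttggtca
Id3, chr4:136143572-136143821, plus strand: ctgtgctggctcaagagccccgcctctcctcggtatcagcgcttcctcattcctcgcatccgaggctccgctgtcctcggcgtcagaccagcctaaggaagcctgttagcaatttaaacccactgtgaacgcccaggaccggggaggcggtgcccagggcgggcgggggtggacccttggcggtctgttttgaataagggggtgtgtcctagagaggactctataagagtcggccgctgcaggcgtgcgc
The motifs searched on both strands were AGGAAGT (bound by PU.1 and SPI-C type factors), TGCTGA (MAF), AGGTCA (nuclear receptors), TTGCNNAA (C/EBP), TGANTCA (AP-1), ACANNNTGT (glucocorticoid receptor) and TGGGAA (RBPJ). The Clec4f stretch held TGCTGA from base 199, TGGGAA from base 35 and AGGTCA from base 22, counted back from the start. Timd4 had ACANNNTGT from base 207, TGCTGA from bases 150 and 44 and AGGTCA from base 116. In Cd5l, TGCTGA stood from bases 54 and 46, and the Vsig4 and Id3 stretches held none of the 7 motifs. Over all 10 member promoter stretches (Nr1h3 has 2 starts), TGCTGA was found in 4, TGGGAA in 4, AGGTCA in 2, AGGAAGT in 1, ACANNNTGT in 1, and TTGCNNAA and TGANTCA in 0. The 2 Nr1h3 stretches overlap and hold the same TGGGAA matches, which are counted for both. Of 32851 promoters of the same length, 16.1% held TGCTGA, 21.6% TGGGAA, 14.0% AGGTCA, 7.69% AGGAAGT, 5.84% ACANNNTGT, 9.56% TTGCNNAA and 6.75% TGANTCA. A match describes the letters only.

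Reads in the listed macrophage peaks numbered 1729720 to 4637873 per mouse (median 3531871) and in hepatocyte peaks 2458156 to 6098645 (median 4364781). Values below are normalized reads as deposited by the authors, and a peak is called opened (more reads in fasted mice) or closed (fewer) at an adjusted p under 0.05 in limma over all peaks of its table. Among the macrophage libraries, mouse 1 fasted 16 h had the highest score on the first principal component (0.43; 26.3% of the variance) and mouse 4 fasted 16 h the fewest reads. The other 3 mice fasted 16 h scored 0.13, 0.18 and 0.27, against 0.19 to 0.26 in mice fasted 24 h. Of the signal, 30.4% to 33.5% lay over 1 kb from a TSS in mice fasted 16 h and 31.8% to 33.6% in mice fasted 24 h, against 33.6% to 35.6% in fed mice of 16 h. The fed mice of 24 h fell into 2 pairs that are also 2 sets of library numbers. Mice 1 and 2 scored -0.28 and -0.23, with 37.1% and 36.4% of the signal over 1 kb from a TSS, and mice 3 and 4 both scored 0.03, with 32.8% and 33.8%. The label of macrophage nuclei was checked with markers of other cells. Of 8 hepatocyte markers 1 had a peak in the macrophage table, against all 8 in the hepatocyte table. Sinusoidal endothelial markers had peaks at 3 of 6 genes, monocyte and neutrophil markers at 4 of 6, stellate cell markers at 1 of 5, cholangiocyte markers at 1 of 3 and lymphocyte markers at 0 of 5. In the hepatocyte table endothelial markers had peaks at 4 of 6 genes and cholangiocyte markers at 2 of 3. Monocyte and neutrophil markers had them there at 1 of 6 and stellate cell markers at 1 of 5.

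The macrophage peaks form 1 list for fasted and fed mice together. All 9 members had at least 2 peaks in it, with 11 at Clec4f, 9 at Id3 and 7 at Timd4. Cd5l and Marco had 6 each, Vsig4, Cd163 and Nr1h3 had 5 each, and Spic had 2. Of the 56, 12 lay within 1 kb of a TSS and the farthest lay 55238 bases away. All peaks span 200 bases, so levels can be set side by side. At the peak nearest each TSS, the level was highest at Id3 (274 ± 12.1 normalized reads, SD over 16 fed mice of all times), then Nr1h3 (198 ± 20.5), Cd5l (145 ± 26.6) and Clec4f (107 ± 14.9). Timd4 (76.0 ± 15.5), Cd163 (75.1 ± 11.9), Spic (56.7 ± 9.23), Marco (44.4 ± 7.83) and Vsig4 (35.8 ± 6.42) followed. The same mice gave all these levels, and differences between the peaks were not tested. For Cd163 the nearest peak lay 4470 bases downstream, in an exon, as no peak within 1 kb of its start is listed. The strongest peaks over 1 kb from a start were at Id3, 3321 bases upstream (199 ± 16.4) and 4026 bases downstream (194 ± 18.9), and at Cd163, 31195 bases upstream (189.9 ± 19.9). Among the lowest in the whole table was Marco 53342 bases downstream (13.6 ± 4.56).

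Hepatocyte nuclei had member peaks at Id3 (9) and Nr1h3 (1) and none listed at the other 7 genes. Of these 10 peaks 8 lay at exactly the positions of macrophage peaks, 7 at Id3 and the Nr1h3 promoter. The 2 tables were normalized separately, so levels were not compared between them. Within its own table the Id3 promoter peak stood at percentile 91.5 of fed levels in hepatocyte nuclei and 96.1 in macrophage nuclei.

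Some member peaks differed between the 4 times in fed macrophage nuclei. Macrophage libraries of 3 and 8 h were numbered apart from those of 16 and 24 h, so these pairs of times also differ in library numbers. Of 56 peaks 5 passed a moderated F test over the 4 times, or 8.93%, against 1.63% of all peaks. They lay at Timd4 (25613 bases upstream), Cd163 (25569 and 24969 bases upstream), Cd5l (23939 bases upstream) and the Nr1h3 promoter. The Timd4 site had 24.3 ± 5.59, 24.1 ± 3.92, 18.0 ± 5.88 and 47.6 ± 6.46 normalized reads in fed mice at ZT15, ZT20, ZT4 and ZT12 (SD, n = 4; limma F test, adjusted p = 4.3e-05). At ZT12 all 4 fed mice (41.5 to 55.2) lay above all fed mice of the other times. The Cd163 site 25569 bases upstream had 17.8 ± 1.96, 17.5 ± 3.43, 16.3 ± 2.87 and 35.9 ± 2.47 at the same times (limma F test, adjusted p = 0.000335). The Nr1h3 promoter peak was lowest at ZT4, with 169 ± 15.4, and had 215 ± 4.35, 199 ± 10.1 and 208 ± 7.91 at ZT15, ZT20 and ZT12 (limma F test, adjusted p = 0.0333). Leaving out fed mouse 1, 3 or 4 of 3 h or fed mouse 1 or 2 of 16 h left 3 calls in each case.

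Fasting called 3 member peaks in macrophage nuclei at 3 h, 4 at 8 h, 21 at 16 h and 6 at 24 h. All 7 calls at 3 and 8 h were opened, and 18 of 21 at 16 h and 5 of 6 at 24 h were closed. As shares of the 56 members these are 5.36%, 7.14%, 37.5% and 10.7%, against 1.82%, 6.60%, 21.3% and 11.3% of all peaks tested, so that the 8 h and 24 h shares, with both directions joined, were near the background. In the same order, 1.68%, 1.63%, 3.79% and 3.00% of all peaks opened and 0.139%, 4.96%, 17.5% and 8.28% closed. By direction the 8 h shares were unlike, with 7.14% of members opened and 0 closed, against 1.63% and 4.96% of all peaks. Over the 4 times 29 members were never called, 7 opened at least once and 21 closed at least once. The peak of Cd163 31195 bases upstream did both. The effect itself differed between times at 6 member peaks (10.7%, against 3.49% of all peaks; moderated F test), at Clec4f, Cd163 and Vsig4. A peak that closed in bulk nuclei can be open in fewer nuclei or less open in each, which cannot be told apart here.

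**Figure D1:**
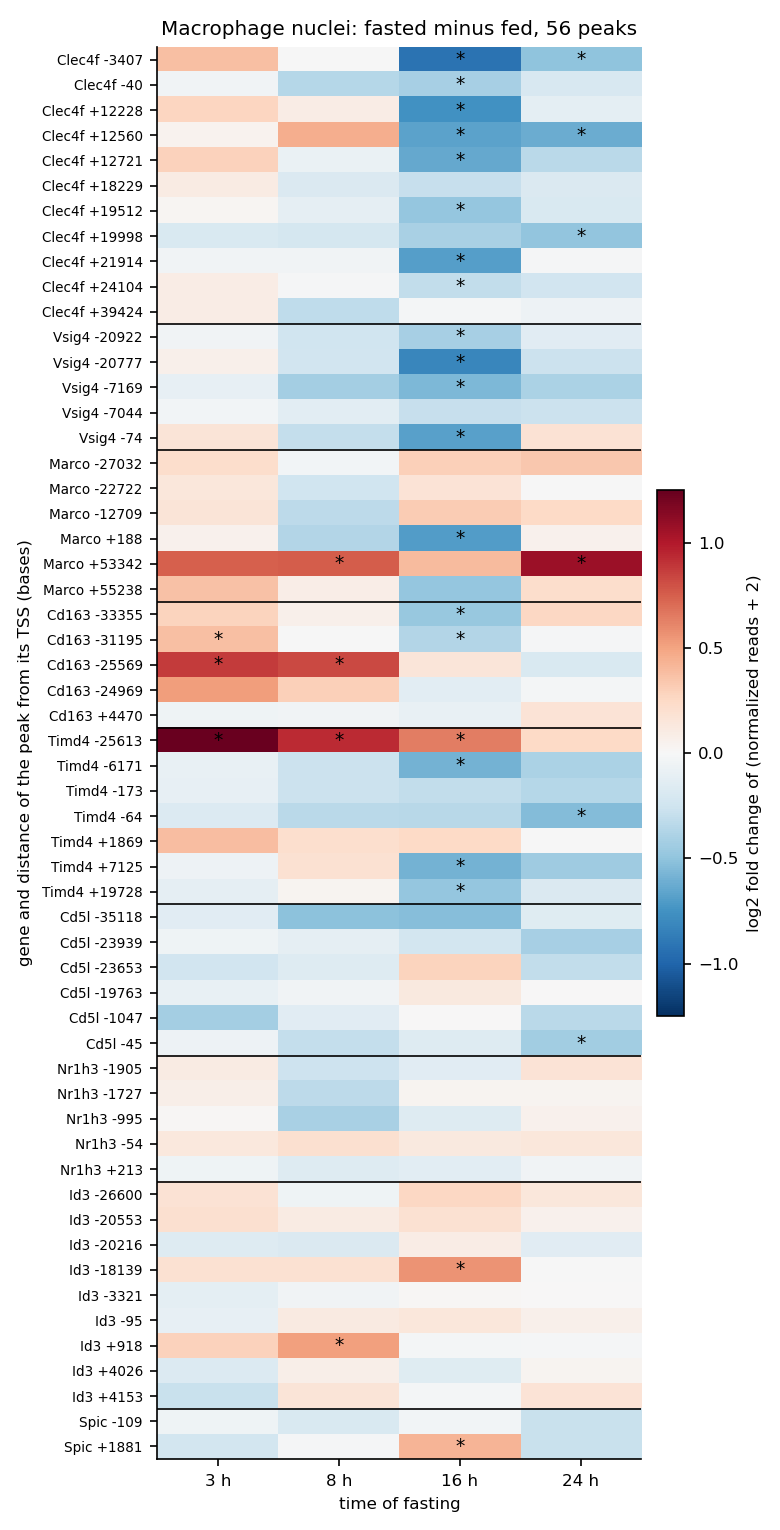
Log2 fold change, fasted minus fed, of the 56 member peaks in macrophage nuclei at 3, 8, 16 and 24 h, by gene and by distance from its TSS in bases; a star marks an adjusted p under 0.05 (limma, 4 mice a group). Blue stars gather at Clec4f, Vsig4 and Timd4 at 16 h, while Timd4 -25613, Cd163 -25569 and Marco +53342 are red at 3 and 8 h.

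**Figure D2:**
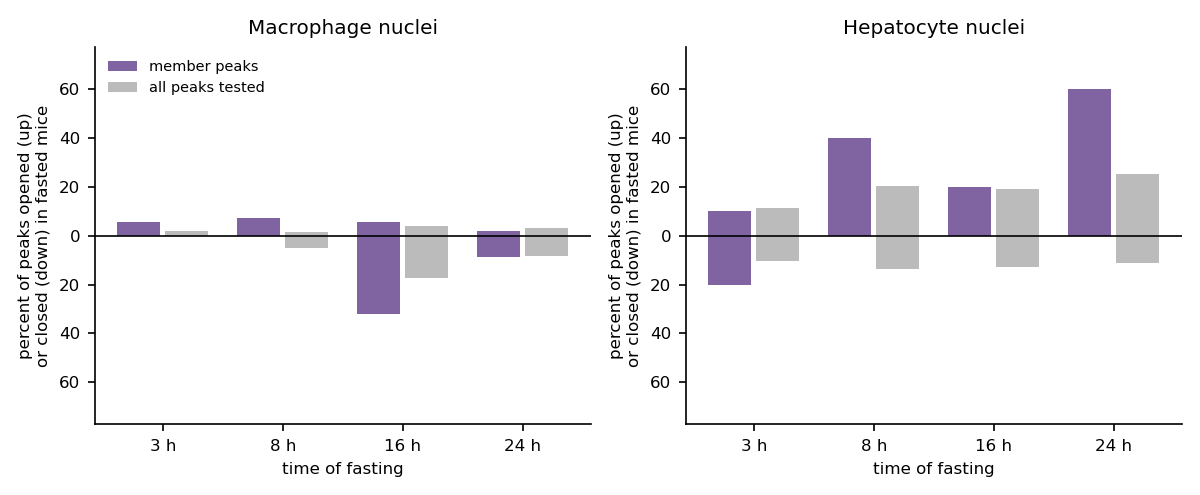
Percent of member peaks and of all peaks tested that opened (bars up) or closed (bars down) in fasted against fed mice at each time, in macrophage (56 members) and hepatocyte nuclei (10 members). In macrophage nuclei the closed bars peak at 16 h in both sets, with 32.1% of members and 17.5% of all peaks.

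The early response of these genes lay at distal sites of Timd4 and Cd163. The sites 25613 bases upstream of Timd4 and 25569 bases upstream of Cd163 had few reads in fed mice. They stood at percentiles 5.96 and 0.587 of fed levels in the macrophage table. The site 25613 bases upstream of Timd4 (chr11:46785086-46785286, intergenic) had 57.3, 42.0, 68.8 and 71.9 normalized reads in mice fasted 3 h, against 17.3, 25.7, 30.8 and 23.7 in fed mice. The groups did not overlap, and the site was 2.35-fold higher in fasted mice (log2 fold change 1.23 ± 0.19 SE, adjusted p = 1.19e-05 in limma). At 8 h it had 40.0, 52.7, 49.6 and 47.9 in fasted mice, against 28.1, 22.9, 19.2 and 26.1 in fed mice. Again no mouse overlapped, with a log2 fold change of 0.93 ± 0.19 (limma, adjusted p = 0.00188). At 16 h the groups overlapped, with 21.7 to 40.9 in fasted mice against 12.2 to 25.7 in fed mice (0.64 ± 0.19, limma, adjusted p = 0.0128). That call was lost without fasted mouse 2 (log2 fold change 0.48) or fed mouse 4 (0.49). By 24 h the fasted mice had 57.3 ± 8.89 and the fed mice 47.6 ± 6.46 (SD, n = 4 each; log2 fold change 0.25, limma, adjusted p = 0.421).

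Cd163 had a like site 25569 bases upstream (chr6:124278982-124279182, intergenic). It had 28.7, 32, 34.1 and 44.4 normalized reads in mice fasted 3 h, against 15.9, 16.7, 18.3 and 20.4 in fed mice. With no overlap it was 1.84-fold higher in fasted mice (log2 fold change 0.88 ± 0.19, limma, adjusted p = 0.00264), and at 8 h 1.77-fold (0.82 ± 0.19, limma, adjusted p = 0.0053). At 16 and 24 h it was not called, with log2 fold changes of 0.15 and -0.19 (limma F test for a difference between times, adjusted p = 0.0171). A stronger Cd163 site, 31195 bases upstream (chr6:124273356-124273556), changed in both directions. It had 207, 198, 215 and 244 in mice fasted 3 h, against 142, 183, 176 and 166 in fed mice, and 129, 175, 141 and 144 in mice fasted 16 h, against 197, 198, 160.4 and 207 in fed mice. The groups were apart at 3 h and overlapped at 16 h. The log2 fold changes were 0.37 ± 0.09 at 3 h (limma, adjusted p = 0.00753) and -0.37 ± 0.09 at 16 h (limma, adjusted p = 0.00203), with -0.01 at 8 and 24 h. The 3 h call was lost without fasted mouse 4 (log2 fold change 0.31) or fed mouse 1 (0.30), and the 16 h call without fasted mice 1 and 4 together (-0.27) or in DESeq2 on reads (-0.25).

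Marco had its largest response 53342 bases downstream (chr1:120451582-120451782, intergenic), at a site with few reads. It had 32.7, 39.8, 36.1 and 44.1 normalized reads in mice fasted 24 h, against 21.6, 8.43, 21.4 and 20.8 in fed mice. No mouse overlapped, and the level was 2.10-fold higher in fasted mice (log2 fold change 1.07 ± 0.23, limma, adjusted p = 0.00118). At 8 h the log2 fold change was 0.76 ± 0.23 (limma, adjusted p = 0.035), a call lost without fasted mouse 2, 3 or 4 or fed mouse 1, 2 or 3 (lowest value 0.63). At 3 h it was 0.75 ± 0.23 and at 16 h 0.40 ± 0.23, neither past the threshold (limma, adjusted p = 0.089 and 0.213), though the 3 h value passed in edgeR (0.86, adjusted p = 0.0292) and with only the 8 mice of the comparison in the fit (0.75, limma, adjusted p = 0.0308). Within Id3 the site 918 bases downstream of the start, in an intron, also opened at 8 h. It had 72.3, 73.1, 64.3 and 72.7 in fasted mice, against 41.9, 44.5, 55.0 and 55.8 in fed mice, with no overlap (log2 fold change 0.51 ± 0.14, limma, adjusted p = 0.0167). That call was lost without fasted mouse 4 (0.50) or fed mouse 1 (0.44) or 2 (0.47). The count of 4 calls at 8 h became 7 without fasted mouse 1 (5 opened, 2 closed) and 2 without fasted mouse 4, fed mouse 1 or fed mouse 2.

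**Figure D3:**
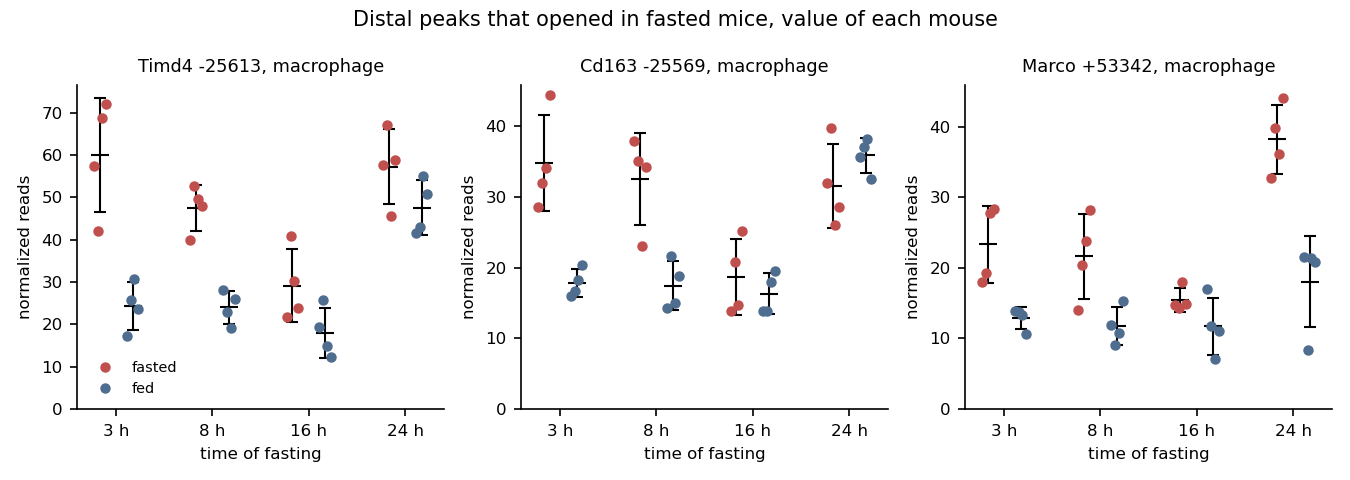
Normalized reads of each mouse in macrophage nuclei at Timd4 -25613, Cd163 -25569 and Marco +53342 (distance from the TSS in bases), fasted left of fed at 3, 8, 16 and 24 h; lines show mean ± SD of 4 mice. At the Timd4 and Cd163 sites the fasted mice lie above the fed mice at 3 and 8 h, and among fed mice the level is highest at 24 h.

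After 16 h of fasting, sites at Clec4f and Vsig4 were lower in fasted macrophage nuclei. Closed calls fell at 8 of 11 Clec4f peaks, 4 of 5 at Vsig4, 3 of 7 at Timd4, 2 of 5 at Cd163 and 1 of 6 at Marco, and at none of the peaks of Cd5l, Nr1h3, Id3 and Spic. Of the 56 members 12 overlap another member and share reads with it. Joined where they overlap, they form 50 sites, of which 16 closed, with 7 of 10 at Clec4f, 3 of 3 at Vsig4 and 3 of 6 at Timd4. The 18 closed members make 32.1%, against 17.5% of all peaks tested. Over 1 kb from a TSS they are 34.1% (15 of 44), against 25.7%, and within 1 kb 25.0% (3 of 12), against 8.14%. The median log2 fold change was -0.15 over the members and -0.10 over all peaks. Over 1 kb from a TSS it was -0.14 over the members and -0.22 over all peaks, and within 1 kb -0.16 and -0.02. Values below 0 were found at 37 of the 56 members (66.1%), against 66.1% of all peaks. At the Clec4f site 3407 bases upstream (chr6:83659423-83659623, intergenic) fasted mice had 17.8, 24.4, 25.3 and 20.8 normalized reads, against 50.3, 44.7, 32.9 and 47.7 in fed mice. All fasted mice lay below all fed mice, a 1.90-fold lower level (log2 fold change -0.92 ± 0.17, limma, adjusted p = 0.000141). The Clec4f promoter peak (chr6:83656056-83656256, overlapping the first sequence above) had 67.3, 78.2, 65.4 and 89.1 in fasted mice, against 128, 93.1, 81.4 and 101 in fed mice. The groups overlapped there (log2 fold change -0.41 ± 0.12, limma, adjusted p = 0.0137), and the call was lost without fasted mouse 1 (-0.36) or fed mouse 1 (-0.29), after centring each library on its median (-0.27), in DESeq2 (-0.35) and with only the 8 mice of the comparison in the fit. Another 6 peaks of Clec4f, 12228 to 24104 bases downstream, closed with log2 fold changes from -0.76 to -0.31. Among them those 12560 and 12721 bases downstream overlap and share reads.

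At Vsig4 the largest change was 20777 bases upstream (chrX:96314115-96314315), inside an intron of the neighbouring gene Hsf3. It had 44.1, 33.7, 40.9 and 35.6 normalized reads in mice fasted 16 h, against 80.4, 70.4, 66.5 and 59.9 in fed mice. No mouse overlapped, and the level was 1.76-fold lower in fasted mice (log2 fold change -0.81 ± 0.16, limma, adjusted p = 0.000349). The Vsig4 promoter peak (chrX:96293412-96293612) had 18.6, 22.2, 30.3 and 31.2 in fasted mice, against 42.5, 35.9, 42.2 and 45.2 in fed mice. Those groups were also apart (log2 fold change -0.68 ± 0.17, limma, adjusted p = 0.00319), and at 24 h the fasted mice had 37.3 ± 3.50 against 33.1 ± 6.13 in fed mice (SD, n = 4 each; 0.18, limma, adjusted p = 0.539). For this promoter the effect differed between times (limma F test, adjusted p = 0.0434). The first exon peak of Marco, 188 bases downstream of its start, had 33.3, 29.4, 43.3 and 16.3 in fasted mice, against 49.5, 45.4, 52.4 and 46.4 in fed mice (log2 fold change -0.70 ± 0.19, limma, adjusted p = 0.00801), with no overlap. That call was lost without fasted mouse 4 (-0.45), in edgeR (-0.49) and in DESeq2 (-0.50). Timd4 closed 6171 bases upstream (-0.59 ± 0.14, limma, adjusted p = 0.003) at the same time as its distal site was opened.

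The scaling of the libraries bears on the 16 h counts. Centring each library on its median moved the median log2 fold change of all macrophage peaks by 0.14, to 0.04. The split of all calls was then 3779 opened and 2625 closed, against 1144 and 5271 with the values as deposited. Members split into 8 opened and 11 closed after centring, 5 and 13 in edgeR and 5 and 9 in DESeq2 (adjusted p under 0.05 in each), against 3 and 18. In all peaks edgeR gave 2939 opened and 2754 closed, and DESeq2 2228 and 2001. Every one of the 18 closed members kept its direction under these scalings. Closed under all of them were 9, at Clec4f (6 peaks, with the one 3407 bases upstream at -0.78 after centring), Vsig4 (20777 bases upstream at -0.67, and the promoter at -0.54) and Timd4 (6171 bases upstream at -0.45). The 6 Clec4f peaks include the overlapping pair 12560 and 12721 bases downstream. The calls at the strongest Clec4f and Vsig4 peaks were lost under all of them, with -0.17 after centring at Clec4f 24104 bases downstream and -0.28 at Vsig4 20922 bases upstream, against -0.31 and -0.42 as deposited. The summed level over the 56 members was 3509 to 3971 in mice fasted 16 h, against 3985 to 4337 in fed mice. Monocyte and neutrophil markers (4 of 6 genes with peaks) summed to 657 to 1047 in the fasted and 675 to 866 in the fed mice, and endothelial markers (3 of 6) to 102 to 208 in the fasted and 215 to 238 in the fed mice. Their part in the result was not tested. Without fasted mice 1 and 4, 13 members were called, 1 opened and 12 closed, and with only the 8 mice of the comparison in the fit 12, all closed. Within both sets of library numbers each of the 21 called members kept its direction. The same mice gave the calls, so this is a description and not an independent check.

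The 3 members that opened at 16 h were the distal Timd4 site above, Spic 1881 bases downstream of its start (an intron) and Id3 18139 bases upstream. The Spic site had 65.0, 59.5, 45.0 and 55.0 normalized reads in fasted mice, against 48.7, 38.8, 43.0 and 34.2 in fed mice, with an overlap (log2 fold change 0.43 ± 0.14, limma, adjusted p = 0.0219). It was lost without fasted mouse 1 (0.35) or fed mouse 2 (0.40) or 4 (0.35). The Id3 site had 75.0, 69.6, 40.1 and 49.0 in fasted mice, against 41.0, 41.0, 25.0 and 47.7 in fed mice, also with an overlap (0.56 ± 0.18, limma, adjusted p = 0.0177). It was lost without fasted mouse 1 or 2 or fed mouse 3 (lowest value 0.38). All 3 were opened under each scaling. With only the 8 mice of the comparison in the fit, all 3 calls were lost (limma, adjusted p = 0.0798 at Timd4 and 0.0862 at Spic).

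At 24 h the closed members were Clec4f (3 sites) and the promoter peaks of Timd4 and Cd5l. Clec4f 12560 bases downstream, at the end of the gene, had 25.6, 22.6, 23.4 and 28.5 normalized reads in fasted mice, against 35.7, 38.8, 43.6 and 40.3 in fed mice. No mouse overlapped (log2 fold change -0.62 ± 0.16, limma, adjusted p = 0.00751), and the same site was 1.59-fold lower in fasted mice at 16 h. At 8 h it went the other way and was not called (log2 fold change 0.46, limma, adjusted p = 0.072). All fasted mice then lay above all fed mice, with 36.3 ± 5.86 against 25.8 ± 2.82 (SD, n = 4 each). Upstream at 3407 bases, Clec4f had 28.5 ± 2.39 in fasted and 41.5 ± 4.99 in fed mice (SD, n = 4 each; -0.51 ± 0.17, limma, adjusted p = 0.0402), a call lost without fasted mouse 1, 2 or 4 or fed mouse 1 or 2 (-0.44 at the least), after centring (-0.41) and in DESeq2 (-0.48). The Timd4 promoter peak (chr11:46810635-46810835) had 49.1, 53.4, 52.9 and 43.2 in fasted mice, against 109, 88.5, 38.3 and 76.8 in fed mice. Fed mouse 3 lay below all fasted mice, and the log2 fold change was -0.54 ± 0.17 (limma, adjusted p = 0.0248). It was lost without fasted mouse 1 or 4 or fed mouse 1 or 2 (-0.36 at the least), without the variance trend (limma, adjusted p = 0.0624) and with only the 8 mice of the comparison in the fit (limma, adjusted p = 0.0776).

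The Cd5l promoter peak (chr3:87357736-87357936) had 97.4, 112, 102 and 103 normalized reads in mice fasted 24 h, against 185, 170.3, 103 and 121 in fed mice. The fed mice spread widely and overlapped the fasted mice (log2 fold change -0.44 ± 0.13, limma, adjusted p = 0.023). The call was lost without fasted mouse 1, 3 or 4 or fed mouse 1 or 2 (-0.31 at the least) after centring (-0.34, limma, adjusted p = 0.0515), in DESeq2 (-0.42) and without the variance trend (limma, adjusted p = 0.0764). The fed mice of both promoters followed the pairs of libraries named above. Within mice 1 and 2 the log2 fold change was -0.91 at Timd4 and -0.76 at Cd5l, and within mice 3 and 4 -0.18 and -0.12. The summed level over the 56 members was 3797 to 4160.3 in mice fasted 24 h, against 4746 and 4488 in fed mice 1 and 2 and 3685 and 3938 in fed mice 3 and 4, and the part of this split in the calls was not tested. Over all members the 24 h count of 6 became 2 without fasted mouse 1, fasted mouse 4 or fed mouse 2, 3 without fed mouse 1, and 10 without fed mouse 3. Among all peaks centring gave 2269 opened and 1600 closed at 24 h, against 905 and 2497 as deposited, and among members 2 and 2, against 1 and 5. At 8 h it gave 1155 and 583 of all peaks, against 493 and 1497, with 6 members opened, against 4, and 0 closed in both cases.

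**Figure D4:**
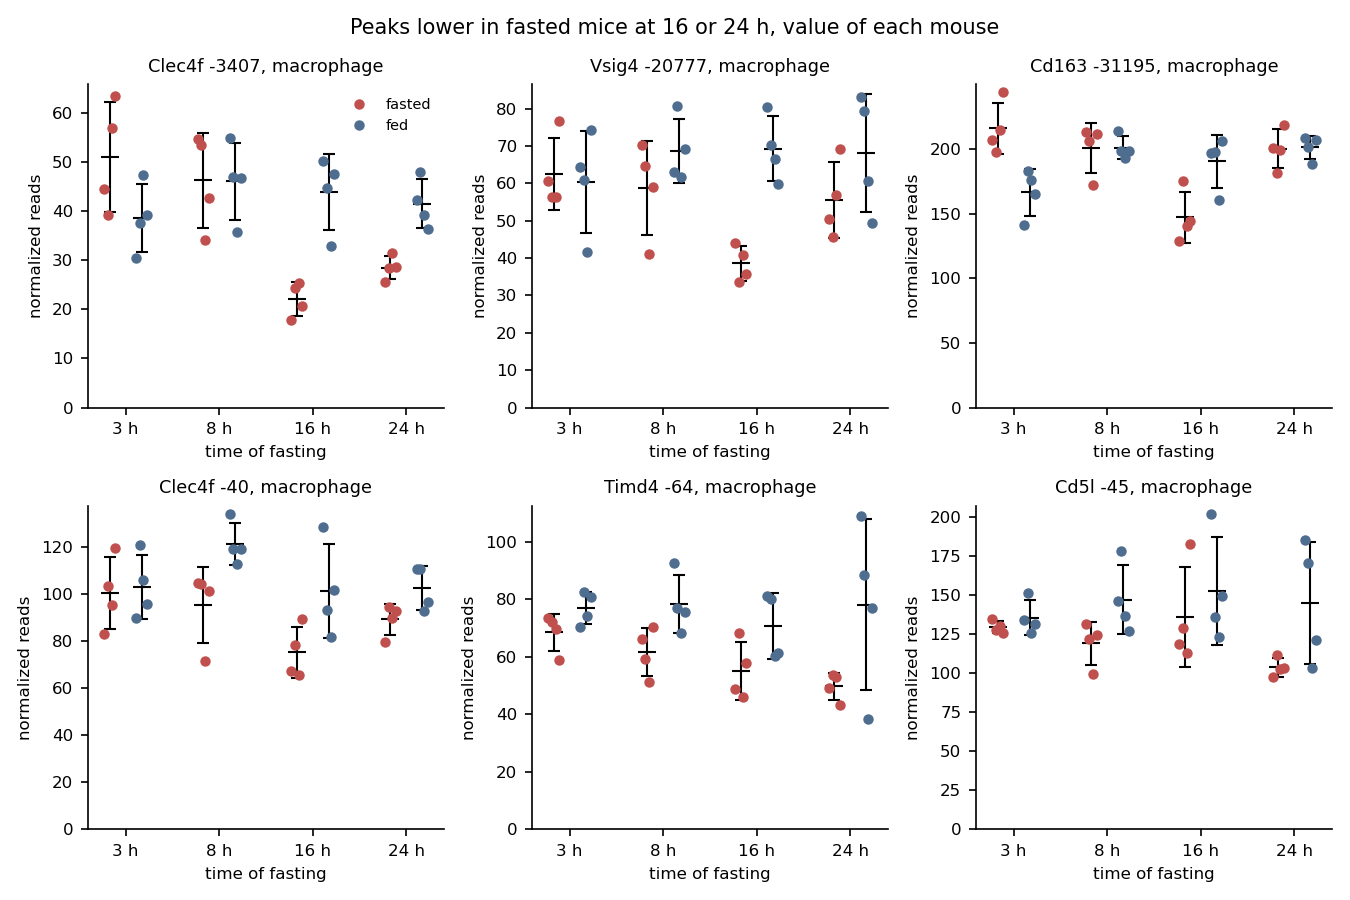
Normalized reads of each mouse in macrophage nuclei at 3 distal peaks (Clec4f -3407, Vsig4 -20777, Cd163 -31195) and 3 promoter peaks (Clec4f -40, Timd4 -64, Cd5l -45), named by distance from the TSS in bases, fasted left of fed at each time; lines show mean ± SD of 4 mice. At 16 h the fasted mice lie below the fed mice at Clec4f -3407 and Vsig4 -20777, and at 24 h the fed mice at the Timd4 and Cd5l promoters range widely.

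With the values as deposited, the promoters of the transcription regulators were not called at any time in macrophage nuclei. The Id3 promoter peak (chr4:136143627-136143827) had 260.5 ± 30.5, 288 ± 16.9, 311 ± 21.0 and 285 ± 15.3 normalized reads in mice fasted 3, 8, 16 and 24 h, against 278 ± 7.25, 267 ± 7.11, 280.4 ± 7.50 and 272 ± 20.3 in fed mice (SD, n = 4 each). At 16 h all fasted mice lay above all fed mice (log2 fold change 0.15, limma, adjusted p = 0.104), and this passed after centring (0.29, limma, adjusted p = 0.00615), in edgeR (0.25, adjusted p = 0.0106) and in DESeq2 (0.25, adjusted p = 0.0158). At the Nr1h3 promoter peak (chr2:91195070-91195270) the log2 fold changes were 0.13, 0.20, 0.12 and 0.14 at 3, 8, 16 and 24 h, with adjusted p from 0.124 to 0.680 in limma. After centring the 8 h and 16 h values passed (0.32, adjusted p = 0.0295, and 0.26, adjusted p = 0.0377, in limma), and the 8 h value also in edgeR (0.29, adjusted p = 0.0199) and DESeq2 (0.28, adjusted p = 0.0369). Spic had log2 fold changes of -0.05, -0.19, -0.04 and -0.28 at its promoter peak, none past the threshold. No Nr1h3 peak of 5 was called at any time, and 1 of 2 Spic peaks and 2 of 9 Id3 peaks were.

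In hepatocyte nuclei, where 9 of the 10 member peaks lie at Id3, distal Id3 sites opened at 8 and 16 h. Of the 10 member peaks 3 were called at 3 h (1 opened, 2 closed), 4 at 8 h, 2 at 16 h and 6 at 24 h, the last 3 counts all opened. As shares these are 30.0%, 40.0%, 20.0% and 60.0%, against 21.6%, 34.0%, 31.8% and 36.7% of all hepatocyte peaks. In the same order, 11.3%, 20.3%, 19.0% and 25.3% of all hepatocyte peaks opened and 10.3%, 13.7%, 12.8% and 11.4% closed. Within 1 kb of a TSS 2 of 3 members opened at 24 h, against 41.1% of all hepatocyte peaks there. Over 1 kb from a TSS 4 of 7 members did, against 16.9%. The site 26600 bases upstream of Id3 (chr4:136117122-136117322, intergenic) had 107, 89.0, 80.5 and 108 normalized reads in mice fasted 8 h, against 38.6, 39.0, 40.4 and 39.9 in fed mice. It was 2.35-fold higher in fasted mice with no overlap (log2 fold change 1.23 ± 0.17, limma, adjusted p = 9.51e-07). At 16 h it had 72.5, 66.5, 123 and 75.1 in fasted mice, against 32.2, 27.2, 49.1 and 38.3 in fed mice, again apart (1.15 ± 0.17, limma, adjusted p = 4.05e-06). In macrophage nuclei the same site had log2 fold changes of 0.18, -0.05, 0.26 and 0.14 and was not called. The difference between cell types was not tested, as the tables were normalized separately.

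A second distal Id3 site in hepatocyte nuclei, 18139 bases upstream (chr4:136125583-136125783), had 93.9, 60.7, 80.5 and 78.6 normalized reads in mice fasted 8 h, against 40.4, 43.6, 35.5 and 31.5 in fed mice. At 16 h it had 50.1, 51.9, 49.7 and 55.0 in fasted mice, against 15.4, 26.5, 3.93 and 34.0 in fed mice. Both times the groups were apart (log2 fold changes 1.01 ± 0.29 and 1.57 ± 0.29, limma, adjusted p = 0.006 and 6.58e-05). The fed level also differed between the 4 times, with 48.1 ± 4.28, 37.8 ± 5.33, 20.0 ± 13.1 and 33.6 ± 8.13 at ZT15, ZT20, ZT4 and ZT12 (SD, n = 4; limma F test, adjusted p = 0.00155). Without fed mouse 3 of 16 h the log2 fold change there was 1.04 and still called, and the count of member calls at 16 h became 4. The intronic Id3 site 918 bases downstream opened at 3 h (0.52 ± 0.19, limma, adjusted p = 0.0428) and 8 h (0.78 ± 0.19, limma, adjusted p = 0.00132). Only at 8 h were its groups apart. The 3 h call was lost without fasted mouse 1, 2 or 4 or fed mouse 1, 2 or 3 (0.40 at the least).

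The Id3 promoter peak moved in opposite directions early and late in hepatocyte nuclei. It had 108, 119, 106 and 111 normalized reads in mice fasted 3 h, against 141, 161, 115 and 157 in fed mice (log2 fold change -0.35 ± 0.10, limma, adjusted p = 0.00995), with an overlap. At 24 h it had 158, 163, 135 and 153 in fasted mice, against 113, 115, 129 and 127 in fed mice, with none (0.33 ± 0.10, limma, adjusted p = 0.0123). The 3 h call was lost without fed mouse 2 (-0.30), which also left 1 member call at 3 h, and the 24 h call after centring (0.25), in edgeR and in DESeq2 (0.19 in both). The site 3219 bases downstream did the same, with -0.54 ± 0.14 at 3 h (limma, adjusted p = 0.00454) and 0.44 ± 0.14 at 24 h (limma, adjusted p = 0.0146). Its 24 h call was lost without fasted mouse 2 or fed mouse 4 (0.34 at the least), in edgeR and in DESeq2 (0.30 in both). At 24 h the sites 3321 bases upstream (0.44 ± 0.10) and 4026 and 4153 bases downstream (both 0.55 ± 0.11) opened as well. Those last 2 peaks overlap and share reads. The scaling moved the split of all hepatocyte calls at the later times. In DESeq2 7070 peaks opened and 7714 closed at 8 h, against 9512 and 6425 as deposited, and 5795 opened and 7113 closed at 16 h, against 8916 and 5980. At 24 h DESeq2 moved the median over all peaks by -0.14, to a log2 fold change of 0.02, and 4602 opened and 7157 closed, against 11867 and 5315 as deposited. The member counts of 4 at 8 h and 2 at 16 h were the same after centring, in edgeR and in DESeq2, and at 24 h 5, 4 and 4 members were called, against 6, all opened.

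Time of day changed 6 of the 10 hepatocyte member peaks in fed mice, all at Id3 (60.0%, against 21.1% of all peaks), and the fasting effect differed between times at 7, also all at Id3 (70.0%, against 24.1%). The Nr1h3 promoter peak opened at 8 h (log2 fold change 0.36 ± 0.11, limma, adjusted p = 0.00733) and 24 h (0.46 ± 0.11, limma, adjusted p = 0.00128). At 24 h it had 181, 193, 157 and 196 normalized reads in fasted mice, against 131, 129.7, 149.7 and 117 in fed mice, with no overlap. This is the stretch whose macrophage values are given above.

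**Figure D5:**
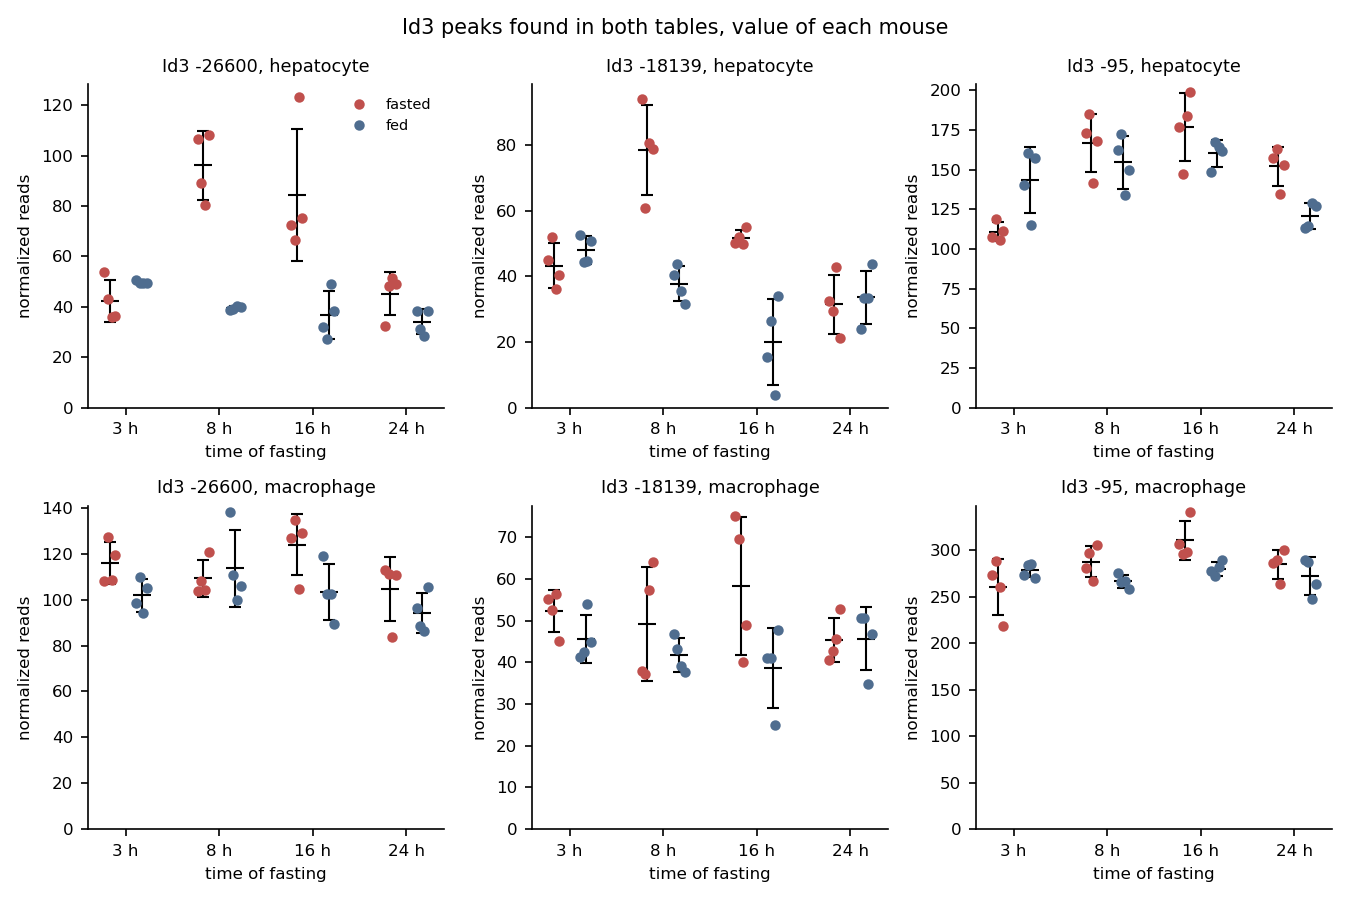
Normalized reads of each mouse at 3 Id3 peaks (-26600, -18139 and -95 bases from the TSS) in hepatocyte (upper row) and macrophage nuclei (lower row), fasted left of fed at each time; lines show mean ± SD of 4 mice, and the 2 rows were normalized separately. In hepatocyte nuclei the distal sites are higher in fasted mice at 8 and 16 h, with 80.5 to 108 at -26600 against 38.6 to 40.4 in fed mice at 8 h.

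Other genes of Kupffer cells were taken from a pair of lists. Of 14 further surface or secreted genes, 13 had 74 macrophage peaks within 100 kb, of which 3 opened and 0 closed at 3 h, 1 and 4 at 8 h, 0 and 33 at 16 h (44.6% closed, against 17.5% of all peaks), and 0 and 9 at 24 h. At 8 and 24 h the closed shares were 5.41% and 12.2%, against 4.96% and 8.28% of all peaks. The opened shares at 3 and 8 h were 4.05% and 1.35%, against 1.68% and 1.63%. The median log2 fold change of these 74 peaks at 16 h was -0.36, against -0.10 over all peaks. The promoter peak of Fcna, a secreted lectin of innate immunity, had 67.6 ± 16.8 in mice fasted 16 h and 115 ± 13.0 in fed mice (SD, n = 4 each; log2 fold change -0.78 ± 0.14, limma, adjusted p = 8.49e-05). A peak 2787 bases downstream of C1qa, a chain of complement C1q, had 36.1 ± 9.99 in fasted and 61.9 ± 8.94 in fed mice (-0.77 ± 0.14, limma, adjusted p = 0.000164). Of 10 further transcription regulators, all 10 had 89 peaks, of which 0 opened and 0 closed at 3 h, 3 and 5 at 8 h, 2 and 24 at 16 h (27.0% closed), and 0 and 7 at 24 h. Of the regulator peaks 5.62% and 7.87% closed at 8 and 24 h, against 4.96% and 8.28% of all peaks. At 8 and 16 h 3.37% and 2.25% opened, against 1.63% and 3.79%. The median log2 fold change of the 89 peaks at 16 h was -0.21. Maf, a factor of resident macrophages, closed 56490 bases downstream (-0.49 ± 0.09, limma, adjusted p = 0.000129). Tfec closed 45292 bases upstream, at a site with few reads. It had 10.7 ± 3.26 in mice fasted 16 h and 26.3 ± 4.84 in fed mice (-1.17 ± 0.23, limma, adjusted p = 0.000284). Rxra, the partner of liver X receptors, opened 3748 bases downstream, with 92.1 ± 32.3 in fasted and 40.2 ± 6.75 in fed mice (1.11 ± 0.16, limma, adjusted p = 5.02e-06). In hepatocyte nuclei 4 of the 14 surface genes had 26 peaks, of which 2, 4, 5 and 2 opened at 3, 8, 16 and 24 h and 1, 2, 1 and 1 closed. As shares 7.69%, 15.4%, 19.2% and 7.69% opened, against 11.3%, 20.3%, 19.0% and 25.3% of all peaks. Closed shares were 3.85%, 7.69%, 3.85% and 3.85%, against 10.3%, 13.7%, 12.8% and 11.4%. The regulators had peaks at 7 of 10 genes, and of these 66 peaks 12, 14, 9 and 31 opened and 4, 7, 8 and 2 closed. Their opened shares were 18.2%, 21.2%, 13.6% and 47.0%, against 11.3%, 20.3%, 19.0% and 25.3% of all peaks. The closed shares were 6.06%, 10.6%, 12.1% and 3.03%, against 10.3%, 13.7%, 12.8% and 11.4%.

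Over the 32 macrophage libraries, the mean log2 level of the 9 peaks nearest each TSS went most closely with peaks near Ptprj (Pearson r = 0.875), Fam46a (0.870), Slfn2 (0.863), Zfp217 (0.858) and Dusp22 (0.856). The median r over all peaks was 0.220 and the 99th percentile 0.753. The points share libraries and their depth, and this is a description.

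In the authors' deposited table, member peaks with an adjusted p under 0.05 in macrophage nuclei were 3 opened and 0 closed at 3 h, 4 and 0 at 8 h, 2 and 17 at 16 h, and 1 and 3 at 24 h. For hepatocyte nuclei the authors' deposited table had 1 and 1, 3 and 0, 2 and 0, and 5 and 0 at the same times. The shares of all peaks called in the authors' columns were not computed. These counts therefore do not say whether the members differ from other peaks.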

How the data were processed

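ATAC-seq signal of 32 hepatocyte and 32 macrophage mice was taken from 1 peak table per cell type. Per the submitters' processing notes the tools were HOMER, DESeq2, SAMtools and BWA (0.7.5a-r405) and the build mm10; the role of each is not given in the sources used here. The values the authors deposited are normalized read signal per peak of 200 bases, and the log2 fold changes and adjusted p-values beside them are the authors' own. The peak score the authors deposited was not used here. Within 0.01 of a read, 100% of values in each column were whole multiples of 1 step, so whole-read counts were recovered from the deposited values. Macrophage samples were run in technical duplicates, per the labels, and the deposited table has 1 column per mouse.

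Tests used limma 3.58.1 (R 4.3.3) on log2(value + 2) over all peaks averaging 10 normalized reads or more, fitted with 8 group means per table and a variance trend, two-sided, with Benjamini-Hochberg adjustment over all tested peaks (46827 hepatocyte, 30170 macrophage) and a threshold of 0.05. The offset understates changes of low peaks. Folds are 2 raised to the log2 fold change. The mouse is the replicate, and nothing beyond separate mouse numbers in the labels says how mice were housed or processed. Alternatives were an offset of 8, no filter, median centring, no variance trend, edgeR 4.0.16 and DESeq2 1.42.0 on recovered counts, a block on library sets, only the 8 mice compared, a window of 50 kb, and leaving out each mouse. Leaving out fasted mice 1 and 4 of 16 h was chosen after seeing the data. The script was tested on simulated data.

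Peaks named are, per gene, that nearest the TSS, that of smallest p and, in macrophages, that of highest mean; for each further list, peaks of smallest p, 1 per gene. Other called peaks were named after their values were seen. The members and lists were chosen with earlier results of these data known. Position matches rest on identical coordinates. Sequences under distal peaks were not analysed here.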

Additional observations from a re-analysis of the deposited data

Results flagged for a closer look

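Among 192 groups of 4 mice at the named peaks, 10 had 1 mouse farther from the others than Dixon's 95% critical ratio for 4 values allows, where chance gives about 1 in 20 groups. In macrophage nuclei the Clec4f promoter peak had 71.3 normalized reads in fasted mouse 3 of 8 h, with 101 to 105 in the other 3 mice. Vsig4 20922 bases upstream had 80.4 in fasted mouse 1 of 16 h (others 69.5 to 71.3) and 116 in fasted mouse 4 of 24 h (others 84.3 to 88.9). Id3 918 bases downstream had 64.3 in fasted mouse 3 of 8 h (others 72.3 to 73.1). Marco 53342 bases downstream had 18.0 in fasted mouse 3 of 16 h (others 14.3 to 14.9) and 8.43 in fed mouse 2 of 24 h (others 20.8 to 21.6), and Marco 27032 bases upstream had 53.3 in fasted mouse 1 of 24 h (others 64.9 to 66.5). In hepatocyte nuclei Id3 26600 bases upstream had 123 in fasted mouse 3 of 16 h (others 66.5 to 75.1), 32.3 in fasted mouse 1 of 24 h (others 48.3 to 51.3) and 50.7 in fed mouse 1 of 3 h (others 49.3 to 49.4).

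The fasting effect differed between times at 13 member peaks (moderated F test in limma, adjusted over all peaks). In macrophage nuclei the adjusted p was 0.00182 at Clec4f 3407 bases upstream, 0.0298 and 0.00182 at 12228 and 12560 bases downstream, 0.0434 at the Vsig4 promoter, and 0.00123 and 0.0171 at Cd163 31195 and 25569 bases upstream. In hepatocyte nuclei all were at Id3, with limma adjusted p of 8.78e-05, 0.00303, 0.00876 and 0.00435 at 26600, 18139, 3321 and 95 bases upstream and 0.00324, 0.00300 and 0.00340 at 3219, 4026 and 4153 bases downstream.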

How the results depend on the processing

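Of the settings tried, 4 kinds moved a count of member calls by over 1.5 times. With only the 8 mice of the comparison in the fit, macrophage nuclei had 5 calls at 3 h, 8 at 8 h (4 opened, 4 closed) and 12 at 16 h, against 3, 4 and 21. In DESeq2 there were 3 calls at 24 h, against 6. Without fasted mice 1 and 4, a choice made after seeing the data, 13 were called at 16 h. Leaving out 1 mouse at a time gave 2 to 4 calls at 3 h, 2 to 7 at 8 h, 14 to 22 at 16 h, 2 to 10 at 24 h, 3 to 5 for fed mice over time and 4 to 8 for an effect that differs between times. In hepatocyte nuclei the ranges were 1 to 3, 4 to 4, 2 to 4, 5 to 7, 4 to 7 and 7 to 8. The cause was not tested. At the 96 named peak comparisons, 1480 values under alternatives kept their direction and side of the threshold, 66 lost the call, 19 gained it and 84 changed sign. All 84 were log2 fold changes at 21 macrophage comparisons not called as deposited, with sizes up to 0.0960 there, and none was called under the alternative. After centring, in edgeR and in DESeq2 the values that changed sign were, at 8 h, 0.11, 0.0776 and 0.0714 at Cd163 -31195, 0.11, 0.0799 and 0.0750 at Clec4f -3407, 0.11, 0.0740 and 0.0677 at Spic +1881, 0.0830, 0.0448 and 0.0404 at Marco -27032, 0.10, 0.0654 and 0.0594 at Clec4f +24104 and 0.0703, 0.0406 and 0.0350 at Cd163 +4470. At 16 h they were 0.12, 0.0383 and 0.0432 at Id3 +918, 0.0469, 0.0462 and 0.0424 at Cd163 +4470 and 0.11, 0.0607 and 0.0612 at Spic -109, and at 24 h 0.0903, 0.0518 and 0.0524 at Cd163 -31195 and 0.0900, 0.0667 and 0.0655 at Id3 +918. Leaving out 1 mouse at a time changed the sign at peaks with these ranges. At 3 h the values ran from -0.0153 to 0.14 at Nr1h3 -1727, -0.15 to 0.0530 at Cd163 +4470, -0.12 to 0.0221 at Vsig4 -20922, -0.0681 to 0.13 at Marco +188, -0.12 to 0.00986 at Spic -109, -0.13 to 0.0448 at Clec4f -40 and -0.0961 to 0.17 at Vsig4 -20777. At 8 h the values ran from -0.0378 to 0.0636 at Cd163 -31195, -0.11 to 0.13 at Clec4f -3407, -0.0686 to 0.0584 at Spic +1881, -0.12 to 0.0465 at Marco -27032, -0.0674 to 0.0200 at Clec4f +24104 and -0.12 to 0.0574 at Cd163 +4470. At 16 h the values ran from -0.16 to 0.0390 at Id3 +918, -0.0621 to 0.10 at Nr1h3 -1727, -0.21 to 0.0148 at Cd163 +4470 and -0.0961 to 0.0518 at Spic -109. At 24 h the values ran from -0.0543 to 0.0341 at Cd163 -31195, -0.10 to 0.0470 at Id3 +918, -0.0879 to 0.19 at Nr1h3 -1727 and -0.12 to 0.21 at Marco +188. No paired analysis was possible because the replicate numbers follow accession order and pair no mice; a block on library sets gave 3, 4, 22 and 8 calls in macrophage nuclei at 3, 8, 16 and 24 h. Sites with few reads, such as Marco 53342 bases downstream, Timd4 25613 bases upstream and Cd163 25569 bases upstream, limit precision.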
